A study of Mus musculus with 10 samples.

Results

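The 41 genes described here encode G protein-coupled receptors for neuropeptides and other peptides. They cover the receptors for somatostatin, neuropeptide Y, galanin, cholecystokinin, corticotropin-releasing hormone, orexin, neurotensin, melanocortins, vasopressin, oxytocin, bombesin-like peptides, vasoactive intestinal peptide, PACAP, glucagon-like peptide, melanin-concentrating hormone, thyrotropin-releasing hormone, bradykinin, endothelin, ghrelin, neuropeptide FF, calcitonin and relaxin. They were taken by gene symbol from a fixed list, and all 41 were among the 32531 gene symbols in the count tables. For description each was assigned 1 main G protein, with 14 receptors on Gi, 11 on Gs and 16 on Gq. The split is a simplification, since a receptor can couple to more than 1 G protein. Galr2, placed on Gi here, could be placed otherwise.

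Peptide receptors sit in the cell membrane and act through G proteins. Gi-coupled receptors lower cyclic AMP and damp neuronal firing, Gs-coupled receptors raise cyclic AMP, and Gq-coupled receptors activate phospholipase C beta and usually excite neurons. Striatal cholinergic interneurons are large, tonically active cells that supply the striatum with acetylcholine, and their firing is known to respond to several peptides released by neighbouring cells and by long-range fibres.

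All libraries came from the whole striatum of adult mice of the Chat-TRAP line DW167, which carries Chat-EGFP/Rpl10a, a fluorescent tag on a ribosomal protein driven from the choline acetyltransferase gene. Polysomes of the tagged cells were captured with antibodies against the tag. Groups were cocaine self-administration, yoked control and saline self-administration, with 3 immunopurified libraries each, beside 1 library of unpurified total RNA from saline animals (the input). The labels do not say what yoked animals received or whether a library pools animals, so p-values measure only the spread between libraries, which may be technical. The tagged cells are defined by the transgene and not by a sort.

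Immunopurified libraries held 24526765 to 75220922 gene counts, with cocaine library 2 the deepest, and the input held 40912230. Between 16530 and 18917 genes had a count in an immunopurified library and 20719 in the input. Chat, which makes acetylcholine, had a log2 ratio of immunopurified RNA to input of 5.76 ± 0.18 (SD, n = 3 saline libraries). Slc18a3, the vesicular acetylcholine transporter gene that lies within Chat, had 6.70 ± 0.35, and all 12 cholinergic markers were at least 2-fold above the input in all 3 libraries. Per the sample descriptions, saline libraries were run on lane 3, cocaine and yoked libraries on lane 4 and the input on lane 5. Lane and group therefore cannot be told apart in any comparison with saline or with the input.

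Hcrtr2, an orexin receptor gene (mm10 chromosome 9, 76225880 to 76323623), and Crhr1, a corticotropin-releasing hormone receptor gene (chromosome 11, 104130463 to 104175523), were the 2 receptors called above the input. Their RefSeq promoter windows are shown because these are the receptors on which the comparison with the input turns. Each window is the 250 bases before the start site in the RefSeq table (GRCm38.p6, the assembly of mm10), written 5′ to 3′ on the gene's strand with every CG pair in capitals. The Hcrtr2 window is chr9:76323624-76323873 on the minus strand. The Crhr1 window is chr11:104132531-104132780 on the plus strand, inside the annotated span of the gene.
Hcrtr2: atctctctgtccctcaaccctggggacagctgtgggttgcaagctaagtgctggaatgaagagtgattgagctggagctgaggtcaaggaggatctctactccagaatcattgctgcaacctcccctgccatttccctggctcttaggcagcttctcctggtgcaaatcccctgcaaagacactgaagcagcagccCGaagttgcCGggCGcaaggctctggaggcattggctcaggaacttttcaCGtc
Crhr1: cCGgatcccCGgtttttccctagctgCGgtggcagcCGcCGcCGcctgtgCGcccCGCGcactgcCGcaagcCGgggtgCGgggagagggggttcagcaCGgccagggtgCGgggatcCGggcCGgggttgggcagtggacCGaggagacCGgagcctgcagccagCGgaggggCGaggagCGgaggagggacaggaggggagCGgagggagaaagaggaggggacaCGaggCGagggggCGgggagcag

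The windows differed in base composition. The Crhr1 window had 25 CG pairs and 74.8% G or C, and the Hcrtr2 window had 4 CG pairs and 55.2%, beside medians of 6 pairs and 52.4% over all 32851 promoter windows. Windows were at hand for 32 of the 41 receptors (36 windows), and 4 motifs were searched on both strands. The homeodomain core TAATTA was in 0 receptor windows and in 4.84% of all windows. The RE1 left part TTCAGCACC was in 0 receptor windows and in 0.301% of all. The cyclic AMP response element TGACGTCA was in 1 receptor window, that of Sstr2, and in 1.55% of all windows. Its shorter form TGACG, which the full element contains, was in 9 receptor windows and in 17.8% of all. None of these letters occurred in the Hcrtr2 or Crhr1 windows.

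Which receptors stand above the total striatal RNA was asked by dividing the read count scaled to library size (CPM, that is counts per 1000000 gene counts) in each saline immunopurified library by that in the input. A receptor was measured if it had at least 20 counts in the input or in the mean saline library. It was called above or below if all 3 ratios were at least 2-fold in that direction. Of 34 measured receptors 2 were above the input (5.88%), Hcrtr2 and Crhr1, and the background was 12.2% of 15888 genes. Below the input were 25 receptors (73.5%), against 23.1% of all genes, and 7 met neither rule. At any fold, 3 receptors were above in all 3 libraries and 28 below, against 35.8% and 44.9% of all genes. The median log2 ratio was −3.15 over the receptors (−3.13 ± 0.25 as the mean and SD of the 3 library medians) and −0.20 over all measured genes. Receptors with few saline counts, such as Cckar, Mc3r and Sstr1, were measured through the input alone, which favours a call below. The share below and the median are therefore partly set by the rule, for the receptors and for all genes. The input has no replicate, so the ratios carry no test. In 9 of the receptors called below (Cckar, Crhr2, Galr1, Grpr, Mc3r, Mc4r, Npy5r, Oxtr and Rxfp1), 1 or 2 saline libraries had a count of 0, read as 3 counts. Their mean ratios are therefore upper limits and are given with no SD. In RNA from many cells, fewer cells with a transcript and less transcript per cell cannot be told apart. Hcrtr2, Crhr1, Adcyap1r1, Grpr and Ednrb were named by a rule applied to these same values. The rule was a call above the input, at least 5 CPM in saline, or an unadjusted p under 0.05 between groups. Other receptors named below were chosen after their values were seen.

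**Figure D1:**
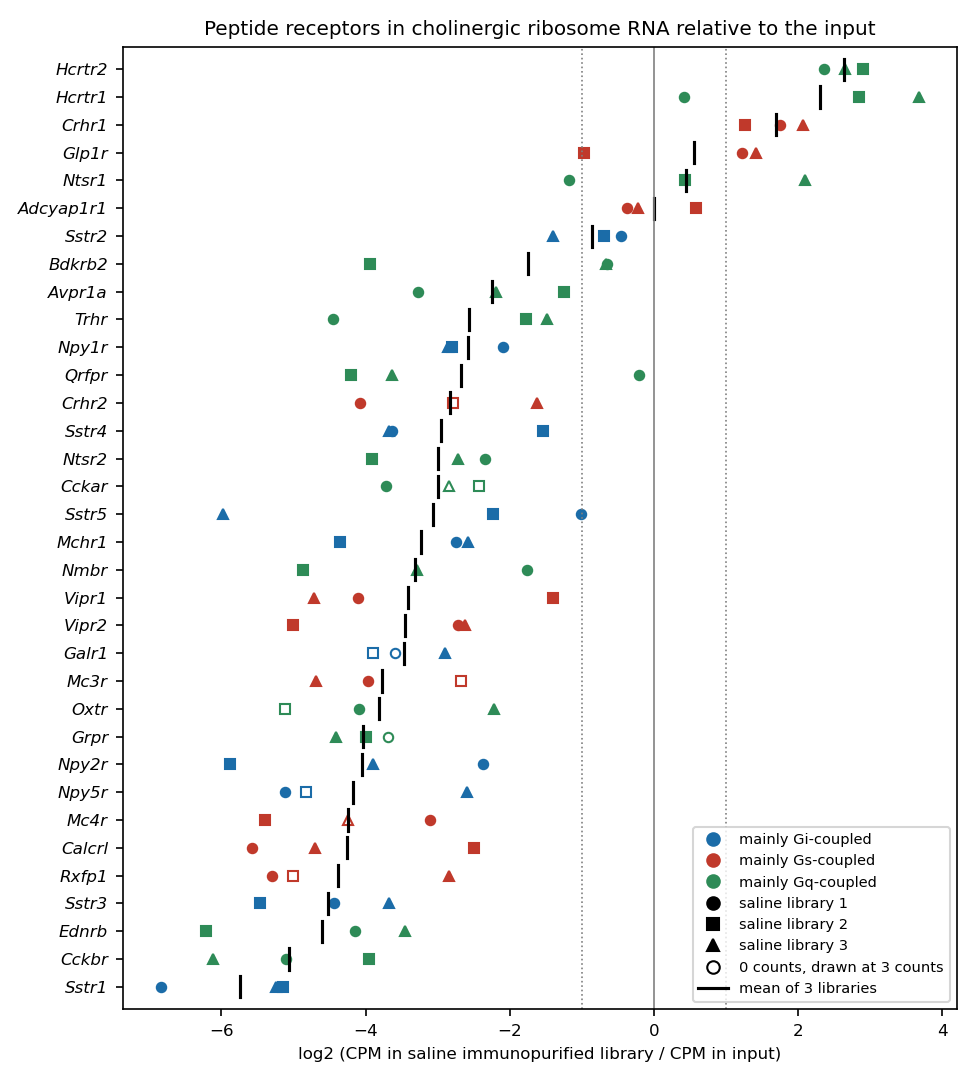
Log2 ratio of CPM in each saline immunopurified library to CPM in the input for the 34 measured receptors, ordered by the mean of 3 libraries (bar) and coloured by the main G protein. Dotted lines mark 2-fold; Hcrtr2 and Crhr1 have all 3 points right of the upper line, and most receptors lie far left of 0.

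Among the 16 Gq-coupled receptors, 14 were measured, 1 was above the input and 9 were below it, with a median log2 ratio of −2.84. Hcrtr2 encodes an excitatory receptor for orexins, peptides made in the lateral hypothalamus and known for arousal. It had 218, 390 and 438 counts in the saline immunopurified libraries and 68 in the input, which is 8.51, 12.4 and 10.4 CPM against 1.66 CPM. All 3 libraries stood well above the input, with log2 ratios of 2.36, 2.90 and 2.65 (mean 2.63 ± 0.27 SD). The ratio of pooled counts was 6.35, with a 95% interval of 4.96 to 8.24 that covers counting error only.

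Hcrtr1, the other orexin receptor gene, had 5, 33 and 79 counts in the saline libraries and 6 in the input. Its log2 ratios of 0.41, 2.84 and 3.68 were all above 0, but saline library 1 was under 2-fold, so it was not called. The pooled ratio of 8.05 had a wide interval of 3.59 to 22.4 because the input count was low. Ntsr1, a neurotensin receptor gene, had log2 ratios of −1.18, 0.42 and 2.10, so its 3 libraries lay on both sides of the input. Ntsr2, the other neurotensin receptor gene, was below the input in all 3 libraries, with a mean of −2.99 ± 0.82.

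The cholecystokinin receptor gene Cckbr was below the input, with a mean of −5.06 ± 1.08. Its relative Cckar had 1, 0 and 0 counts in the saline libraries and 21 in the input, a pooled ratio of 0.0197 (95% counting interval 0.00048 to 0.122). Ednrb, an endothelin receptor gene known from astrocytes, had 51, 15 and 136 counts in the saline libraries and 1443 in the input, a mean log2 ratio of −4.60 ± 1.43. Grpr, the gastrin-releasing peptide receptor gene, had 0, 3 and 3 counts against 62 in the input, a pooled ratio of 0.0399 (95% counting interval 0.0141 to 0.0920) and a mean log2 ratio of at most −4.03. Below the input were also the genes of the vasopressin receptor Avpr1a (−2.24), the thyrotropin-releasing hormone receptor Trhr (−2.57), the neuromedin B receptor Nmbr (−3.31) and the oxytocin receptor Oxtr (at most −3.81). The bradykinin receptor Bdkrb2 and the receptor Qrfpr met neither rule, and Avpr1b and the ghrelin receptor Ghsr were too low to measure.

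Among the 11 Gs-coupled receptors, 10 were measured, 1 was above the input and 7 were below it, with a median log2 ratio of −3.43. Crhr1, a receptor of the stress peptide corticotropin-releasing hormone, had 280, 245 and 576 counts in the saline libraries and 133 in the input. These are 10.9, 7.80 and 13.7 CPM against 3.25 CPM, and every library was more than 2-fold above the input. The log2 ratios were 1.75, 1.26 and 2.07 (mean 1.70 ± 0.41 SD), and the pooled ratio was 3.42 (95% counting interval 2.85 to 4.12). Its relative Crhr2 was below the input at no more than −2.83.

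Adcyap1r1, the receptor for PACAP (chromosome 6, 55451501 to 55501455), was present at almost the same level in both kinds of RNA. It measured 68.3, 132 and 75.7 CPM in the saline immunopurified libraries and 88.3 CPM in the input, so saline library 2 was above the input and the other 2 below it. The mean log2 ratio was 0.00 ± 0.51, and the pooled ratio was 1.04 (95% counting interval 1.0 to 1.08). The other receptors of this peptide family, Vipr1 and Vipr2, were below the input at −3.41 ± 1.76 and −3.45 ± 1.35.

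Glp1r, the glucagon-like peptide receptor gene, had log2 ratios of 1.22, −0.97 and 1.42, with saline library 2 below the input and the other 2 above. The melanocortin receptor genes Mc3r and Mc4r (at most −3.78 and −4.25), Calcrl (−4.26), which binds calcitonin gene-related peptide and adrenomedullin, and the relaxin receptor Rxfp1 (at most −4.39) were all below. The calcitonin receptor Calcr was too low to measure.

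Of the 14 Gi-coupled receptors 10 were measured, 0 were above the input and 9 were below it, with a median log2 ratio of −3.34. Sstr2 was the member that met neither rule, at −0.85 ± 0.49, with all 3 libraries below the input. The other somatostatin receptor genes were lower still, with Sstr4 at −2.95 ± 1.22, Sstr5 at −3.07 ± 2.59, Sstr3 at −4.52 ± 0.90 and Sstr1 at −5.74 ± 0.96. The neuropeptide Y receptor genes ran from −2.58 ± 0.42 for Npy1r to −4.05 ± 1.76 for Npy2r and at most −4.18 for Npy5r. Mchr1, the melanin-concentrating hormone receptor gene, was at −3.23 ± 0.98 and the galanin receptor gene Galr1 at no more than −3.46. Galr2, Galr3, Npffr1 and Rxfp3 were too low to measure. Among these, Rxfp3 had 1, 0 and 33 counts in the saline libraries and 3 in the input, a pooled ratio of 4.68 (95% counting interval 1.47 to 23.8).

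Markers of other cells gave a scale for these ratios. The medians of 10 lists for spiny projection neurons, other interneurons, cortical neurons, glia and vessels lay between −4.39 and −2.95, and 56 of their 65 measured entries were below the input. The receptor median of −3.15 lay inside that range. The cholinergic list had a median of 5.27.

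The level of each receptor was then followed across the 9 immunopurified libraries. A mean of at least 5 CPM in saline was reached by 3 receptors (Adcyap1r1, Crhr1 and Hcrtr2), and 28 had a mean under 1 CPM. A count was present in every immunopurified library for 20 receptors. At these depths 3 counts correspond to 0.0399 to 0.122 CPM, so many receptors lay close to what a library can detect. The CPM values varied least for Crhr1, with a coefficient of variation over 9 libraries of 16.6%, followed by Npy1r (24.5%), Adcyap1r1 (27.9%) and Hcrtr2 (29.0%). For every other receptor it was at least 46.5%.

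**Figure D2:**
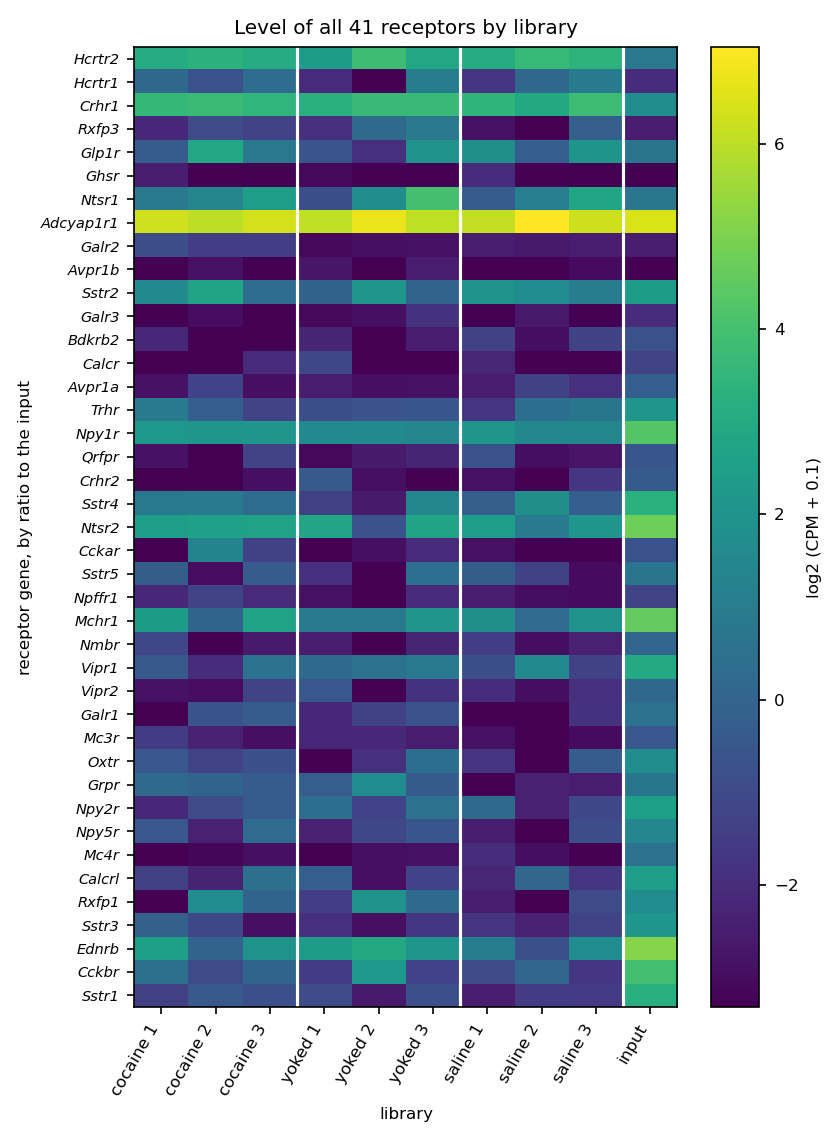
Level of each of the 41 receptors in the 9 immunopurified libraries and the input, as log2 of CPM plus 0.1, with receptors ordered by their ratio to the input. Colours can be compared along a row only, since genes differ in length; Hcrtr2 and Crhr1 are brighter in all 9 immunopurified libraries than in the input, and the lower rows are mostly brightest in the input.

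Whether treatment changed the receptors was tested with edgeR's quasi-likelihood test on all 9 immunopurified libraries. Of 14989 genes with enough counts, 26 were listed receptors (11 on Gi, 6 on Gs and 9 on Gq). The other 15 were too low, none of them above 2.45 CPM in any immunopurified library. With Benjamini-Hochberg adjustment, 0 receptors and 0 genes (0%) were called in any of the 4 tests (cocaine over saline, cocaine over yoked, yoked over saline, or any difference), and DESeq2 also called 0. The smallest adjusted p of any gene by edgeR's quasi-likelihood test was 0.850 for cocaine over saline, 0.9997 for cocaine over yoked, 0.999 for yoked over saline and 0.9995 for any difference.

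At an unadjusted p under 0.05, edgeR's test left 1 of 26 receptors for cocaine against saline (Grpr), where the background was 5.28% of genes. For cocaine against yoked it left 0, against 2.61% of genes, and for yoked against saline 2 (Grpr and Ednrb), against 2.18%. For any difference it left 1 (Grpr), against 2.8%. Among the 26 tested receptors, cocaine and yoked libraries did not overlap saline libraries for 2 each, all higher: Grpr and Sstr1 after cocaine (10.3% of genes in either direction) and Grpr and Ednrb in yoked (7.05%). Cocaine and yoked libraries did not overlap for 1 of these 26, Npy1r, higher after cocaine (6.78% of genes in either direction). The comparisons with saline share the same 3 saline libraries. For Grpr and Sstr1 no saline library met the filter on low counts, which is scaled to depth. Both entered the test through cocaine and yoked libraries alone, so their lack of overlap with saline is not independent of the filter.

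Of 26 tested receptors, 18 had a positive and 8 a negative log2 fold change for cocaine against saline, with a median of 0.38 against 0.0049 over all genes. For cocaine against yoked the split was 16 to 10 (median 0.24 against 0.0011), and for yoked against saline 15 to 11 (median 0.22 against −0.014). The split itself was not tested. Marker lists of other cells all had positive medians for cocaine over saline, the lowest being 0.085. For yoked over saline the median was −0.14 over cortical neuron markers and 0.0061 over astrocyte markers, and positive in the other lists. Oligodendrocyte markers (6) were at 0.42 for cocaine and 0.50 for yoked. Markers of other interneurons (9) were at 0.68 and 0.76, and microglia markers (5) at 0.64 and 0.73. For cocaine over yoked the same lists, in this order, were at 0.091, −0.34 and −0.21. Other lists were nearer to 0 for cocaine and yoked over saline. Markers of D1 spiny neurons (7) were at 0.093 and 0.11, and of spiny neurons in general (8) at 0.087 and 0.14. The cholinergic markers (12) were at −0.065 and −0.012. The part of other cells in the receptor estimates was not tested. The typical 95% interval of a receptor reached 2.33, 2.26 and 2.34 log2 units to either side for cocaine over saline, cocaine over yoked and yoked over saline. In fold terms this is 5.04, 4.81 and 5.08, so for the typical receptor smaller changes were not detectable at this depth and spread, even before adjustment. A call after adjustment over all genes asks for a smaller p, so larger changes could be missed as well.

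**Figure D3:**
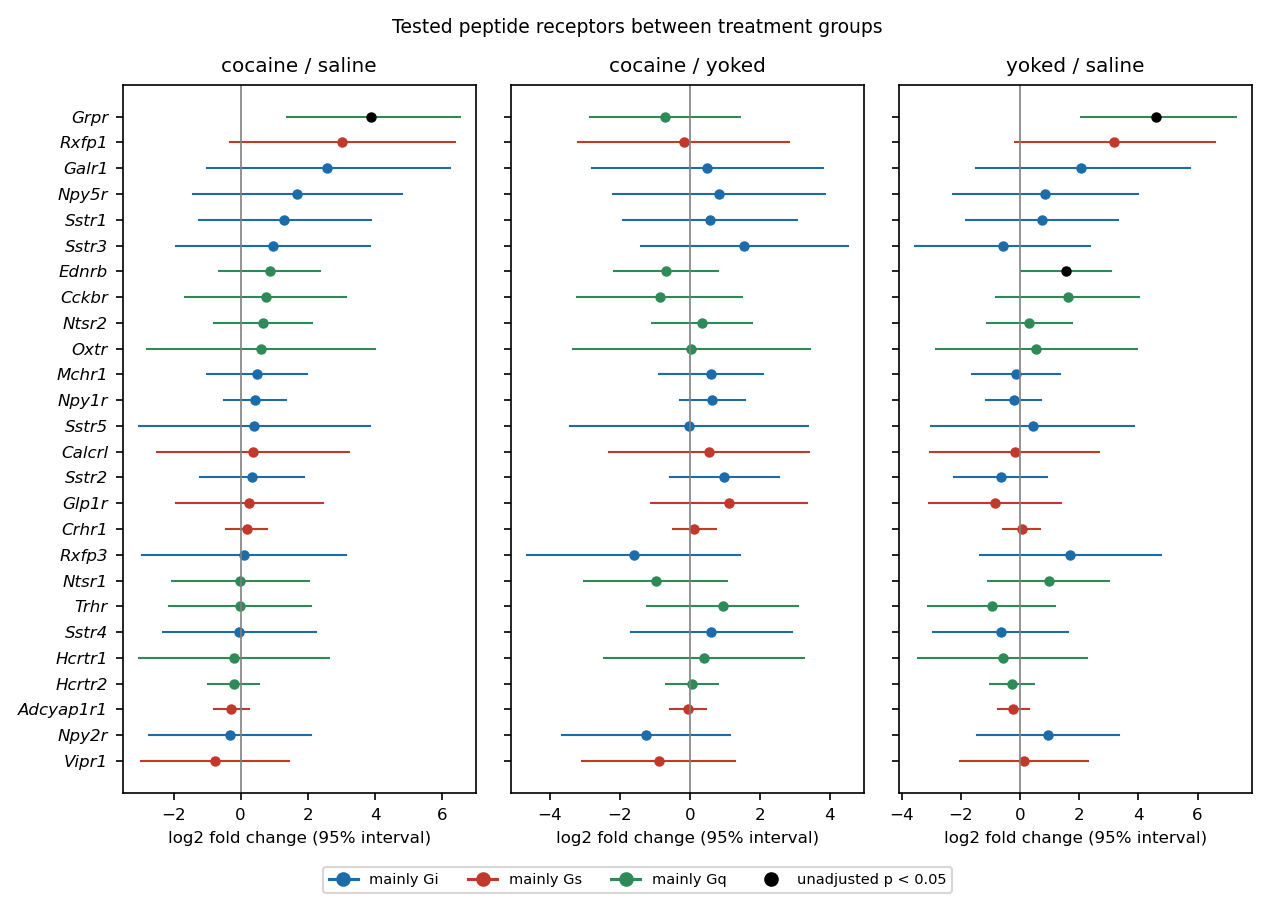
Log2 fold change with its 95% interval from edgeR for the 26 tested receptors, for cocaine over saline (left), cocaine over yoked (middle) and yoked over saline (right), coloured by the main G protein. Black points mark an unadjusted p under 0.05 (Grpr in the comparisons with saline, Ednrb for yoked over saline); no receptor passed after adjustment.

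The receptors above or level with the input had the narrowest intervals. Hcrtr2 measured 8.36, 9.92 and 8.38 CPM in cocaine libraries, 5.20, 14.3 and 7.24 CPM in yoked libraries and 8.51, 12.4 and 10.4 CPM in saline libraries. All 3 groups overlapped, and yoked library 2 was the highest of the 9. The mean was 8.88 ± 0.89 CPM in cocaine libraries, 8.91 ± 4.77 CPM in yoked libraries and 10.4 ± 1.95 CPM in saline libraries (SD, n = 3 each). By edgeR the log2 fold change was −0.21 (95% interval −0.96 to 0.54) for cocaine against saline, 0.057 (−0.69 to 0.81) for cocaine over yoked, and −0.27 (−1.02 to 0.48) for yoked against saline. Without yoked library 2 the last of these was −0.72 (unadjusted p = 0.0461), and without yoked library 1 it was −0.0069.

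Crhr1 measured 11.9, 13.2 and 11.1 CPM in cocaine libraries, 9.26, 12.4 and 12.5 CPM in yoked libraries and 10.9, 7.80 and 13.7 CPM in saline libraries. The saline libraries spanned all the cocaine and yoked values, and saline library 2 was the lowest of the 9. By edgeR the log2 fold change was 0.17 (95% interval −0.44 to 0.79) for cocaine against saline, 0.12 (−0.49 to 0.73) for cocaine over yoked, and 0.050 (−0.56 to 0.66) for yoked against saline. These intervals exclude a 2-fold change in either direction.

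Adcyap1r1 measured 79.0, 65.5 and 79.9 CPM in cocaine libraries, 65.6, 108 and 66.5 CPM in yoked libraries and 68.3, 132 and 75.7 CPM in saline libraries. The values of the yoked and saline libraries numbered 2 stood above the rest, and the other 7 libraries lay between 65.5 and 79.9 CPM. By edgeR the log2 fold change was −0.28 (95% interval −0.80 to 0.23) for cocaine against saline, −0.054 (−0.57 to 0.46) for cocaine over yoked, and −0.23 (−0.74 to 0.29) for yoked against saline. Without saline library 2 the values against saline were 0.056 for cocaine and 0.11 for yoked.

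**Figure D4:**
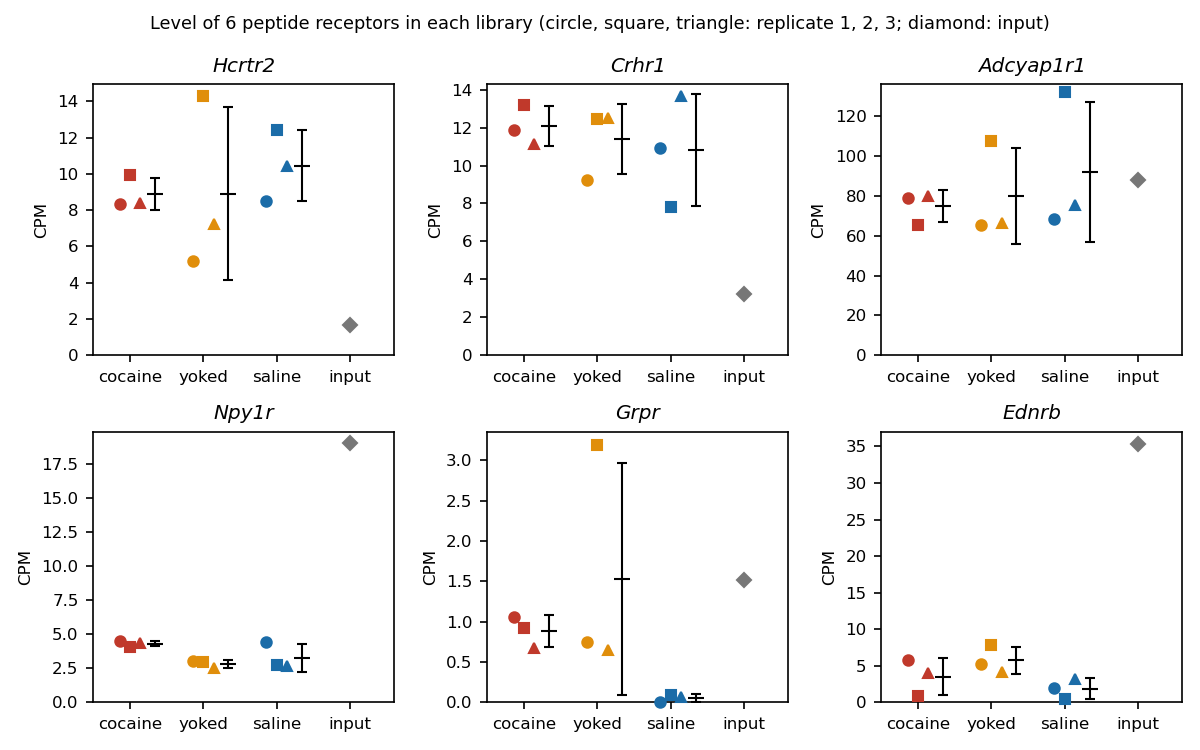
CPM of 6 receptors in each immunopurified library of the cocaine, yoked and saline groups and in the input, with the mean and SD of 3 libraries beside each group; the vertical axes differ between panels and start at 0. Hcrtr2 and Crhr1 lie above the input in all 9 immunopurified libraries, Npy1r and Ednrb lie below it, and Grpr is near 0 in the 3 saline libraries alone.

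Grpr (chromosome X, 163513904 to 163549736), an excitatory receptor known for its role in itch and in fear circuits, had the smallest p of the receptors in both comparisons with saline. Its counts were 26, 69 and 20 in cocaine libraries, 41, 97 and 18 in yoked libraries and 0, 3 and 3 in saline libraries. These are 1.06, 0.92 and 0.68 CPM in cocaine, 0.75, 3.19 and 0.66 CPM in yoked and 0, 0.095 and 0.071 CPM in saline libraries, and the input measured 1.52 CPM. All 6 cocaine and yoked libraries stood above all 3 saline libraries, and yoked library 2 was the highest. No saline library met the filter on low counts (minimum count 10). Grpr was therefore tested only because it was higher in cocaine and yoked libraries, and its comparisons with saline carry this limit.

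For Grpr the log2 fold change by edgeR was 3.88 ± 1.20 (SE) for cocaine against saline (unadjusted p = 0.00530, Benjamini-Hochberg adjusted p = 0.850). It was 4.59 ± 1.23 for yoked against saline (unadjusted p = 0.00187, adjusted p = 0.999) by the same test. DESeq2 gave an unadjusted p of 2.79e-05 and an adjusted p of 0.118 for yoked against saline. For cocaine against yoked edgeR gave −0.72 ± 1.0 (SE, unadjusted p = 0.485), and 0.34 without yoked library 2. The ratio of pooled counts was 14.7 for cocaine over saline (95% counting interval 6.55 to 40.9) and 22.8 for yoked over saline (10.3 to 63.2). Over all 9 immunopurified libraries its mean log2 ratio to the input was −1.74, and in the saline libraries at most −4.03. The summed level of 10 markers of other interneurons was 41.1 to 62.6 CPM in cocaine libraries, 35.5 to 58.8 CPM in yoked libraries and 30.0 to 39.8 CPM in saline libraries. A large part of this sum was Sst, at 12.1, 31.2 and 9.12 CPM in cocaine libraries. It measured 8.40, 13.4 and 8.95 CPM in yoked and 9.96, 16.2 and 7.36 CPM in saline libraries, so all groups overlapped for Sst. Of 9 such markers tested by edgeR, 7 had a higher and 2 a lower estimate in each comparison with saline. At an unadjusted p under 0.05 there were 1 higher and 1 lower for cocaine and 2 higher for yoked. Calb2 was at 0 in 2 cocaine libraries, Htr3a in 2 saline libraries, and Chodl in 1 cocaine and 1 saline library. The part of such cells in the result was not tested, and the sequencing lane cannot be told apart from saline.

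Ednrb (chromosome 14, 103814615 to 103844508) measured 5.79, 0.86 and 3.97 CPM in cocaine libraries, 5.26, 7.80 and 4.15 CPM in yoked libraries and 1.99, 0.48 and 3.23 CPM in saline libraries, with 35.3 CPM in the input. Every yoked library was above every saline library, while cocaine libraries overlapped both. By edgeR the log2 fold change for yoked against saline was 1.55 ± 0.71 (SE; unadjusted p = 0.0459, Benjamini-Hochberg adjusted p = 0.999). It was 0.86 ± 0.70 for cocaine against saline (unadjusted p = 0.237) and −0.68 ± 0.69 for cocaine against yoked (unadjusted p = 0.341). With 1 library left out at a time these ranged from 0.31 (without cocaine library 1) to 1.53 (without saline library 3), and from −1.24 (without cocaine library 1) to −0.21 (without cocaine library 2). Leaving out 1 library at a time moved the value for yoked against saline between 1.09 and 2.21, with unadjusted p up to 0.123. It was 0.85 without the 3 libraries numbered 2, an alternative chosen after seeing the data.

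Beside Ednrb, the 6 astrocyte markers summed to 316 to 338 CPM in yoked libraries and 232 to 389 CPM in saline libraries, with 3 estimates higher and 3 lower by edgeR and none at 0. The 7 vessel markers summed to 2.24 to 7.15 CPM in yoked libraries and 0.732 to 3.06 CPM in saline libraries, with 2 of 3 tested estimates higher by edgeR, and with Kcnj8 at 0 in 2 yoked libraries, Cldn5 in 2 saline libraries and Kdr in 1. Of the 6 microglia markers, the summed level was 9.42 to 12.8 CPM in yoked libraries and 4.71 to 8.55 CPM in saline libraries, which did not overlap. Much of this gap was in 1 marker, Aif1. It measured 5.55, 4.68 and 5.28 CPM in yoked libraries and 1.44, 0.92 and 1.31 CPM in saline libraries. The means of Csf1r and P2ry12 went the other way, at 2.01 and 0.50 CPM in yoked and 2.77 and 1.22 CPM in saline libraries. By edgeR 3 of 5 tested estimates were higher and 2 lower, 1 of them (higher) at an unadjusted p under 0.05, with P2ry12 at 0 in 1 yoked library and C1qa in 1 saline library. The 6 oligodendrocyte markers summed to 294 to 452 CPM in yoked libraries and 214 to 466 CPM in saline libraries, with all 6 estimates higher and none at 0. The part of these cells in the result was not tested.

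Npy1r, a Gi-coupled neuropeptide Y receptor gene, was the tested receptor whose cocaine and yoked libraries did not overlap. It measured 4.53, 4.09 and 4.34 CPM in cocaine libraries and 3.02, 3.0 and 2.51 CPM in yoked libraries, with 4.45, 2.74 and 2.64 CPM in saline libraries. By edgeR the log2 fold change for cocaine against yoked was 0.64 (95% interval −0.29 to 1.56; unadjusted p = 0.162). Sstr1 measured 0.29, 0.64 and 0.47 CPM in cocaine libraries and 0.078, 0.25 and 0.24 CPM in saline libraries, from counts of 2 to 48 per library. Its log2 fold change by edgeR was 1.30 (−1.24 to 3.87; unadjusted p = 0.289).

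Galr2, a galanin receptor gene, was removed by the filter on low counts. It had 11, 20 and 8 counts in cocaine libraries, 1 count in each yoked library and 2, 2 and 3 counts in saline libraries. The cocaine libraries, at 0.45, 0.27 and 0.27 CPM, stood above the yoked libraries, at 0.018, 0.033 and 0.036 CPM, and the saline libraries, at 0.078, 0.064 and 0.071 CPM. The pooled ratio was 11.3 for cocaine over yoked (95% counting interval 3.61 to 57.4) and 4.27 for cocaine over saline (1.89 to 11.3). These intervals cover counting error only. Other filtered receptors also had groups without overlap, in both directions. Npffr1 was higher in cocaine than in saline libraries and Mc3r higher in yoked than in saline libraries. Avpr1a was lower in yoked than in saline libraries, as was Galr2. The share of filtered genes without overlap was not computed. Galr2 was chosen among the 15 filtered receptors once its values were known. With no such filter, edgeR called 0 of all 41 receptors.

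Several receptors were high in 1 or 2 libraries of a group rather than in a whole group. Cckar had 184 counts in cocaine library 2 (2.45 CPM) and at most 9 in any other immunopurified library. Cckbr measured 4.51 CPM in yoked library 2 and at most 1.30 CPM in the other immunopurified libraries. Ntsr1 measured 15.6 CPM in yoked library 3, with 0.45 and 3.33 CPM in the other yoked libraries. Glp1r measured 7.11 CPM in cocaine library 2, with 0.69 and 1.70 CPM in the other cocaine libraries. Rxfp1 measured 3.23 CPM in cocaine library 2 and 3.79 CPM in yoked library 2, with 0 in cocaine library 1 and in saline library 2. Over the 26 tested receptors, yoked library 2 held the highest value for 5 and the lowest for 8, and yoked library 3 the highest for 6. In yoked library 2 and saline library 2, 36.3% and 36.4% of reads were not uniquely aligned, against at least 46.5% in the other immunopurified libraries. They also had the fewest genes with a count among these, 16724 and 16530. Whether this bears on the receptor values was not tested.

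The receptors work with peptides, accessory proteins, G proteins and enzymes, which were read from 5 lists with 76 genes. Against the input 53 were measured, 13 were above and 13 below. For the 38 peptide ligands, 17 were measured, 3 above and 8 below, with a median log2 ratio of −2.37. Rln3, a relaxin-family peptide that acts on Rxfp3, had 286 counts over the 3 saline immunopurified libraries and 0 in the input. With the input read as 3 counts it was at least 30.7-fold higher in the mean of the log2 ratios. Gal, the galanin gene, had 145 counts and 0 in the input, which gives at least 14.7-fold by the same rule. Rln1, a relaxin gene, was at 2.60 ± 0.42. With a count of 0 read as 3 counts, the lowest ligand ratios were those of Npy, the neuropeptide Y gene made by other striatal interneurons, at −5.53 ± 2.41, and Adcyap1, the PACAP gene, at −4.70 ± 1.84. Edn3, an endothelin gene, had 2 counts over the 3 saline libraries and 61 in the input. Its ratio was at most −4.20 and may lie below these.

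The accessory proteins split, with 2 of 5 measured above the input and 2 below (median 0.16). Mrap2, a partner of melanocortin and related receptors, had 982 counts over the 3 saline libraries and 19 in the input, a log2 ratio of 4.22 ± 0.83. Ramp2, which directs Calcrl toward adrenomedullin, was at 2.09 ± 0.56, and Crcp, a component of calcitonin gene-related peptide receptors, at 0.16 ± 0.13. Ramp1 and Ramp3, which also pair with Calcrl and Calcr, were below at −3.79 ± 0.83 and at most −4.98 (0 counts in 1 saline library). Of the receptors named with them here, Calcrl, Mc3r and Mc4r were below the input and Calcr was too low to measure.

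All 12 G alpha genes were measured, 2 above and 0 below, with a median of −0.041. Gnas, the Gs subunit, was at 1.71 ± 0.12, Gnai2, a Gi subunit, at 1.27 ± 0.28 and Gnaz, a related subunit, at 0.73 ± 0.10. The lowest were Gna14 (at most −2.36, with 0 counts in 2 saline libraries) and Gna12 (−1.13 ± 0.15). Of 12 measured adenylyl cyclases and phospholipases C beta, 4 were above and 3 below (median 0.012). Adcy2 was at 3.65 ± 0.33, Plcb4 at 2.24 ± 0.21 and Adcy6 at 2.05 ± 0.13. Plcb1 and Adcy5, enzymes abundant in spiny projection neurons, were at −2.74 ± 0.79 and −1.57 ± 0.10. Of 7 receptor kinases and arrestins, which switch receptors off, 2 were above and 0 below (median 0.84), led by Grk5 at 1.95 ± 0.16, Grk6 at 1.53 ± 0.20 and Adrbk1 at 0.91 ± 0.43. The lowest were Arrb1 at 0.42 ± 0.14 and Grk4 at 0.51 ± 1.04.

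**Figure D5:**
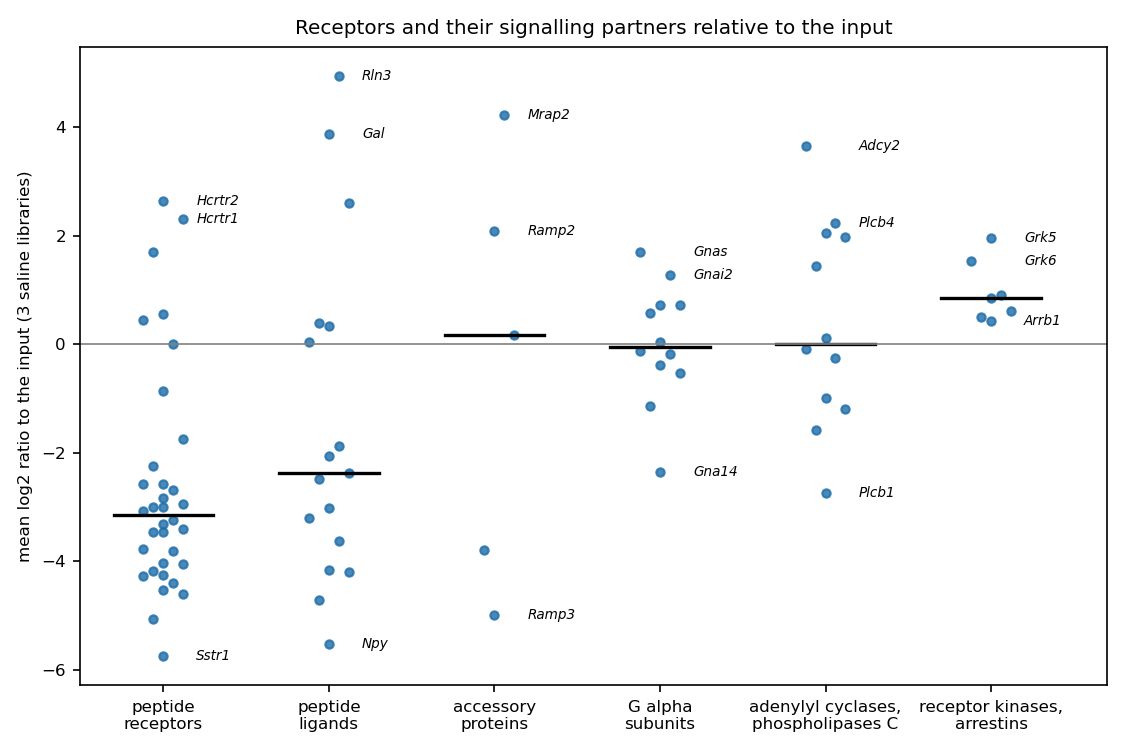
Mean log2 ratio of CPM in 3 saline immunopurified libraries to the input for each measured gene of the receptors and of 5 partner lists, with the list median as a bar. The receptor median of −3.15 and the ligand median of −2.37 lie below 0, and the medians of the other lists lie between −0.041 and 0.84; the points of Rln3 and Gal are lower bounds.

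Between the treatment groups 51 partners were tested, and edgeR with Benjamini-Hochberg adjustment called 0 in each comparison, as did DESeq2. At an unadjusted p under 0.05, 3 partners were left between cocaine and saline (5.88%, against 5.28% of all genes), 2 between cocaine and yoked (3.92%, against 2.61%) and 3 between yoked and saline (5.88%, against 2.18%). The genes, chosen after their values were seen, were Gnaz, Trh and Gnai3 for cocaine against saline, with log2 fold changes of 0.67, 3.19 and −0.57. For cocaine against yoked they were Gnaz (0.56) and Gnai3 (−0.53). For yoked against saline they were Adcyap1 (3.24), Trh (3.08) and Adcy7 (−1.37). Trh had 0 counts in saline library 2 and 7 over the 3 saline libraries, so its values rest on few reads. Gnaz measured 83.6, 178 and 90.3 CPM in cocaine libraries, Adcyap1 0.89, 4.84 and 0.47 CPM in yoked libraries and Adcy7 2.89, 17.7 and 4.20 CPM in saline libraries, so 1 library stood apart in each.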

How the data were processed

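RNA of tagged polysomes (9 libraries) and total RNA (1 input) was sequenced from mouse striatum. The authors deposited 1 table of raw counts by gene symbol for each library. The submitters' processing notes name STAR 2.0.0e, HTSeq and build mm10, and the annotation and strand setting are not given in the sources used here. Reads of overlapping genes (8 of the 41 receptors overlap another annotated gene) may therefore be mixed. Reads not given to a gene (47.6% to 67.4% of immunopurified libraries, 55.1% of the input) were left out. Gene coordinates came from RefSeq for 22961 of 32531 symbols.

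CPM was computed from gene counts. Treatment groups were compared by edgeR 4.0.16 in R 4.3.3 (quasi-likelihood F-test, TMM scaling and filterByExpr at minimum count 10 and minimum total 15), on 9 libraries in 1 fit with 6 residual degrees of freedom, called at adjusted p under 0.05; DESeq2 1.42.0 was an alternative. Scripts were tested on simulated data. Ratios to the input used a minimum of 20 counts and read a count of 0 as 3 counts. Intervals of pooled ratios are exact at the 95% level (scipy 1.17.1); reads carry no molecular identifiers, so they cover counting error only.

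Libraries with the same replicate number deviated together weakly for cocaine and yoked (correlations 0.107 to 0.153) and for yoked and saline (0.130 to 0.177). For cocaine and saline the correlations were 0.0776 to 0.107. Libraries with unlike numbers gave −0.0928 to −0.0220, −0.155 to 0.0573 and −0.114 to 0.0474, in the same order. The numbers may therefore pair the libraries, but this comes from the data, not from the labels. The main tests left the replicate number out, and a block for it was an alternative.

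Named in full are receptors above the input, at 5 CPM or more in saline, or with an unadjusted p under 0.05; of each partner list the 3 highest and 2 lowest ratios. The receptors, lists and rule were chosen with earlier results of these data known.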

Additional observations from a re-analysis of the deposited data

How the results depend on the processing

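The receptors called between treatment groups numbered 0 under every alternative tried: DESeq2 size factors, the DESeq2 test, no filter on low counts, only the 6 libraries compared, a replicate block, each library left out in turn, and all 3 libraries numbered 2 left out (chosen after seeing the data). With no filter, edgeR called 60 genes between cocaine and saline, 27 between cocaine and yoked, 18 between yoked and saline and 98 for any difference, none of them a listed receptor or partner. With the replicate number as a block the count of genes called was 0 in all 4 tests, and the block changed no other call.

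Hcrtr2 and Crhr1 were above the input under every setting except 4-fold, where 1 receptor (Hcrtr2) and 6 partners were above. Without 1 saline library 2 to 3 receptors were above (Hcrtr1 joined without saline library 1, Glp1r without library 2) and 25 to 26 below; partners were 13 to 14 above and 14 to 17 below. With all 9 immunopurified libraries 8 partners were below. The ratio of Grpr was −4.76 with no minimum and 0.5 counts added.

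Some small estimates changed sign. For cocaine against saline, leaving out 1 library gave −0.46 to 0.056 for Adcyap1r1 and −0.021 to 0.41 for Crhr1. For cocaine against yoked it gave −0.16 to 0.18 for Adcyap1r1, −0.20 to 0.53 for Hcrtr2 and −1.07 to 0.34 for Grpr. For yoked against saline it gave −0.44 to 0.11 for Adcyap1r1 and −0.15 to 0.28 for Crhr1. Without the 3 libraries numbered 2, Adcyap1r1 was 0.13 and Crhr1 −0.12 for cocaine over saline. Adcyap1r1 was then 0.24, Ednrb 0.022 and Grpr 0.28 for cocaine over yoked, and Crhr1 was −0.17 for yoked over saline. The cause was not tested.

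Of the 41 receptors 28 averaged under 1 CPM in saline, and the input has 1 library. What limits the number of calls was not tested.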
